A study of Homo sapiens with 4 samples.

Results

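Primary (azurophil) granules are the antimicrobial granules that myeloid precursors fill at the promyelocyte stage. The genes described here are 9 of a list of 10 granule-related genes, listed by name: ELANE, PRTN3, AZU1, CTSG, RNASE2, RNASE3, LYZ, SRGN and SERPINB1, among 18567 genes in the table. The remaining member, MPO (myeloperoxidase), was not analysed here. RNA was sequenced from 2 NC and 2 sh-ANP32B samples of Kasumi-1, an established human acute myeloid leukemia line that carries the RUNX1::RUNX1T1 fusion. The sh-ANP32B cells carried a short hairpin RNA against ANP32B, a nuclear histone-binding phosphoprotein. The labels give NC as untreated, with no hairpin, whereas the study describes control cells with a hairpin of their own, and which of these the NC samples were is not settled here. If they were untreated, an effect of infection and selection cannot be told apart from that of the knockdown. The labels do not say which of the study's hairpins was used, nor whether the samples of a group were separate cultures. The study says in general that its experiments were repeated independently, without naming these samples. The p-values therefore measure the spread between these samples, which may be technical.

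In a granule, the proteases elastase (ELANE), proteinase 3 (PRTN3) and cathepsin G (CTSG) are stored in active form beside azurocidin (AZU1), a homologue that has lost protease activity. Together they are known as the serprocidins. Lysozyme (LYZ) cleaves bacterial cell walls, and serglycin (SRGN) is the proteoglycan core on which positively charged granule proteins are packed. RNASE2 and RNASE3 are secreted ribonucleases best known from eosinophil granules. SERPINB1 is not a granule content but a cytosolic inhibitor of elastase, proteinase 3 and cathepsin G. The comparison asks how the RNA of these genes differed with knockdown of ANP32B.

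Levels are given as TPM, transcript abundances that are corrected for length and scaled to a fixed total per sample, so they can be compared between genes. Sequencing depth is unknown, since TPM keeps none. Differences are log2 fold changes of TPM + 1, sh-ANP32B minus NC, tested by limma with p adjusted (Benjamini-Hochberg) over 16817 genes. ANP32B itself had 384 and 392 TPM in NC, against 51.8 and 41.2 TPM in sh-ANP32B (limma adjusted p 0.00516). Of all genes tested 559 passed an adjusted p under 0.05, which is 3.32%, with 360 (2.14%) higher and 199 (1.18%) lower. After median-of-ratios scaling the split was 230 higher and 288 lower. Over all genes tested the log2 fold change had a median of 0.0827. Of 6 markers written for this line 4 had values. CD33 had 68.3 and 58.5 TPM in NC, against 69.1 and 70.1 TPM in sh-ANP32B. ANPEP had 87.6 and 81.7 TPM against 124 and 134 TPM, and RUNX1T1 17.6 and 15.6 TPM against 31.2 and 26.8 TPM. KIT, a receptor usually abundant in this line, had only 1.55 and 2.31 TPM against 3.41 and 2.76 TPM. None of these 4 passed, with limma adjusted p of 0.0581 for ANPEP and 0.0632 for RUNX1T1. CD34 and MPO were not analysed here. Mitochondrial genes made up 12.9% and 13.1% of TPM in NC, against 11.4% and 8.43% in sh-ANP32B. Of 6 lymphocyte markers 3 had values, with sums of 8.45 to 9.71 TPM in NC and 12.9 to 15.2 TPM in sh-ANP32B, and CD2 was called higher, at 1.65 and 1.57 TPM against 9.48 and 9.25 TPM. Erythroid, megakaryocyte and epithelial markers were not analysed here. With mitochondrial genes left out and the totals rescaled, 535 genes passed by limma. LYZ was then the only gene of the list that passed, at a log2 fold change of 0.92. The part of the marker differences in the results was not tested.

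All 9 genes were expressed at high levels and passed the filter on low values. Of them 1, LYZ, passed the test (3.32% of all genes did) and 8 did not. LYZ rose, 0 of the 9 were lower by limma at this threshold, and 3 were lower and 3 higher at an unadjusted p under 0.05. At that unadjusted threshold 23.8% of all genes passed, 15.0% higher and 8.72% lower. The log2 fold change was positive for 4 genes and negative for 5, with a median of -0.06, and the median of its absolute value was 0.44 against 0.29 over all genes tested. The samples of the groups did not overlap for 7 genes, where 54.6% of all genes did not: 4 lay higher in both sh-ANP32B samples (33.2% of all genes) and 3 lower (21.4%). The study's criterion was a log2 fold change beyond 0.5 at p under 0.05 by DESeq2, without saying whether p was adjusted. Set here on the unadjusted p of limma, it was met by 4 of the 9, as by 18.6% of all genes. These were LYZ and ELANE on the higher side (12.1% of all genes) and PRTN3 and CTSG on the lower side (6.55%).

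**Figure D1:**
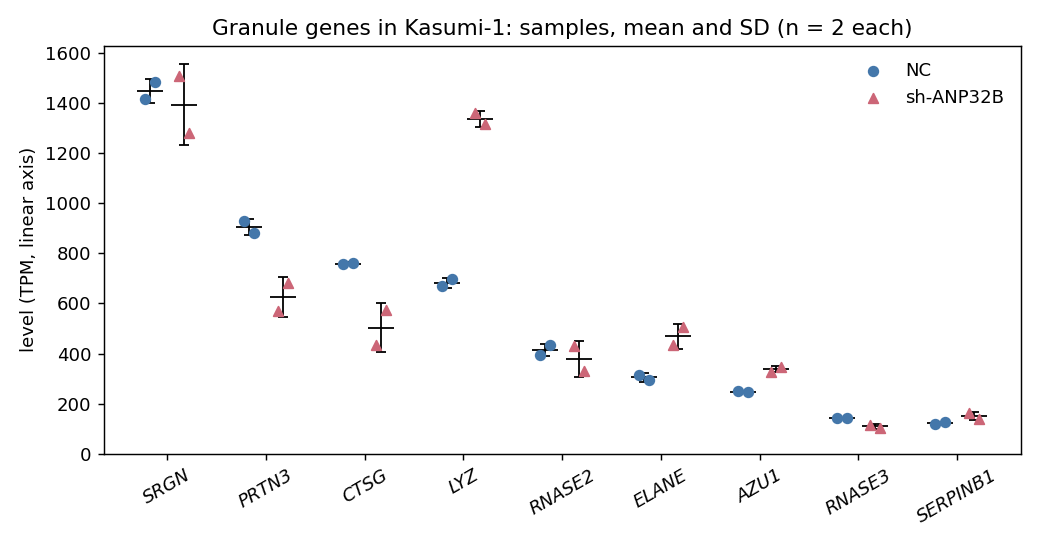
TPM of each granule gene (linear axis) in the 2 NC samples (circles) and the 2 sh-ANP32B samples (triangles), with the mean (dash) and SD. LYZ stands at 669 and 697 TPM in NC and at 1360.0 and 1316 TPM in sh-ANP32B, PRTN3 and CTSG are lower in both sh-ANP32B samples, and SRGN and RNASE2 overlap.

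In NC the order of the mean levels was SRGN, PRTN3, CTSG, LYZ, RNASE2, ELANE, AZU1, RNASE3 and SERPINB1. The 2 values of each gene lay outside the range of its neighbours in that order. In sh-ANP32B the ranges of SRGN and LYZ overlapped, as did those of PRTN3 and CTSG, of CTSG and ELANE, and of RNASE2 and AZU1. SRGN was the 87th and 84th most abundant gene of the NC samples, and PRTN3 the 130th and 133rd. The summed level of the 9 genes was 4993 and 5065 TPM in NC, against 5342 and 5270.1 TPM in sh-ANP32B. The sh-ANP32B sums were the higher, with an exact two-sided permutation p of 0.333, the smallest that 2 samples against 2 can give. In bulk RNA, fewer cells expressing a gene and less RNA per cell cannot be told apart.

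Lysozyme was the gene that passed the test. LYZ (ENSG00000090382), on the plus strand of chromosome 12 (hg38) between 69348381 and 69354234, had 669 and 697 TPM in NC, against 1360.0 and 1316 TPM in sh-ANP32B. Both sh-ANP32B samples lay above both NC samples, and the replicates of each group were close. Mean levels were 683 ± 19.4 and 1338 ± 31.0 TPM (SD, n = 2 each), a ratio of 1.96. The log2 fold change was 0.97 (limma SE 0.118, adjusted p 0.0281, 95% interval 0.69 to 1.25). It moved from the 174th and 167th most abundant gene in NC to the 84th and 88th in sh-ANP32B. The call was lost without NC replicate 1 (limma adjusted p 0.105), without NC replicate 2 (0.0789) and without the abundance trend in limma (0.114), while the log2 fold change stayed between 0.94 and 1.00 in these fits. Lysozyme is also abundant in monocytes. Of 7 monocyte and macrophage markers 4 had values, and their summed level was 10.6 to 12.8 TPM in NC and 19.7 to 27.6 TPM in sh-ANP32B. In the same samples S100A8 had 1.39 and 0.466 TPM in NC against 3.67 and 6.63 TPM, and S100A9 6.53 and 6.55 TPM against 11.0 and 14.6 TPM. Their part in the LYZ result was not tested.

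The 3 serprocidin genes of chromosome 19 differed in sign, although they lie within 31151 bases of each other on the plus strand. ELANE (ENSG00000197561), at 851014 to 856247, had 316 and 292 TPM in NC, against 433 and 505 TPM in sh-ANP32B. PRTN3 (ENSG00000196415), at 840999 to 848175, had 929 and 882 TPM in NC, against 569 and 683 TPM in sh-ANP32B. AZU1 (ENSG00000172232), at 825097 to 832018, had 249 and 247 TPM in NC, against 328 and 346 TPM in sh-ANP32B. Thus both sh-ANP32B samples lay above both NC samples for ELANE and AZU1 and below both for PRTN3, whose end is 2838 bases from the start of ELANE.

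None of the 3 passed the test over all genes by limma, and each had an unadjusted p under 0.05. For ELANE mean levels were 304 ± 16.7 and 469 ± 50.4 TPM (SD, n = 2 each), giving a log2 fold change of 0.62 (limma SE 0.134, adjusted p 0.0586). For PRTN3 they were 906 ± 33.7 and 626 ± 80.8 TPM, and the log2 fold change was -0.54 (limma SE 0.138, adjusted p 0.0818). For AZU1 they were 248 ± 1.78 and 337 ± 12.7 TPM, and the log2 fold change was 0.44 (limma SE 0.118, adjusted p 0.0900). The 95% intervals, 0.30 to 0.94 for ELANE, 0.16 to 0.72 for AZU1 and -0.87 to -0.21 for PRTN3, lie on either side of 0 and are not adjusted for the number of genes.

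CTSG (ENSG00000100448), the serprocidin of chromosome 14, lies from 24573518 to 24576250 on the minus strand. It had 756 and 763 TPM in NC, against 435 and 572 TPM in sh-ANP32B. Both sh-ANP32B values were below NC, and they lay farther apart than those of NC. Mean levels were 760 ± 5.18 and 504 ± 97.4 TPM (SD, n = 2 each), giving a log2 fold change of -0.61 (limma SE 0.158, adjusted p 0.0845). The log2 fold change was -0.80 without sh-ANP32B replicate 2 and -0.41 without replicate 1.

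**Figure D2:**
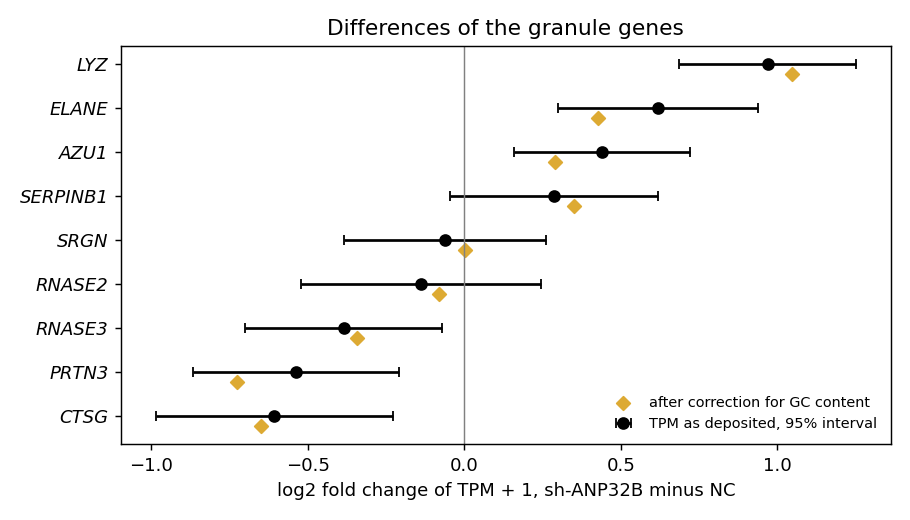
Log2 fold change of each granule gene, sh-ANP32B minus NC, with its 95% limma interval (circles, bars), and the same value after correction for GC content (diamonds). LYZ is farthest to the right at 0.97, CTSG and PRTN3 are farthest to the left at -0.61 and -0.54, and the intervals of SRGN, RNASE2 and SERPINB1 include 0.

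Ratios within a sample do not depend on scaling between samples, and so set the serprocidins against each other. They can still depend on the GC content of the transcripts, 54.7% for CTSG against 66.8% for ELANE, and were not corrected for it. PRTN3 exceeded ELANE 2.94-fold and 3.02-fold in the NC samples and 1.31-fold and 1.35-fold in the sh-ANP32B samples. The replicates of each group nearly coincided and the groups were far apart. PRTN3 over AZU1 was 3.73 and 3.57 in NC and 1.73 and 1.97 in sh-ANP32B. CTSG over ELANE was 2.39 and 2.61 in NC and 1.00 and 1.13 in sh-ANP32B. By contrast CTSG over PRTN3 was 0.813 and 0.866 in NC and 0.764 and 0.838 in sh-ANP32B, ranges that overlap. ELANE over AZU1 was 1.27 and 1.19 in NC and 1.32 and 1.46 in sh-ANP32B, without overlap but with a smaller gap. These ratios were formed after the values had been seen, and 2 samples against 2 allow no exact permutation p under 0.333.

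As shares of their summed TPM, the 4 serprocidins were made up differently in the groups. ELANE made up 14.04% and 13.4% in NC and 24.5% and 24.0% in sh-ANP32B. AZU1 made up 11.1% and 11.3% in NC and 18.6% and 16.4% in sh-ANP32B. PRTN3 accounted for 41.3% and 40.4% in NC and for 32.2% and 32.4% in sh-ANP32B, and CTSG for 33.6% and 34.9% in NC and for 24.6% and 27.2% in sh-ANP32B. The summed level was 2250.5 and 2184 TPM in NC, against 1765 and 2106 TPM in sh-ANP32B, lower in both sh-ANP32B samples (exact two-sided permutation p 0.333).

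**Figure D3:**
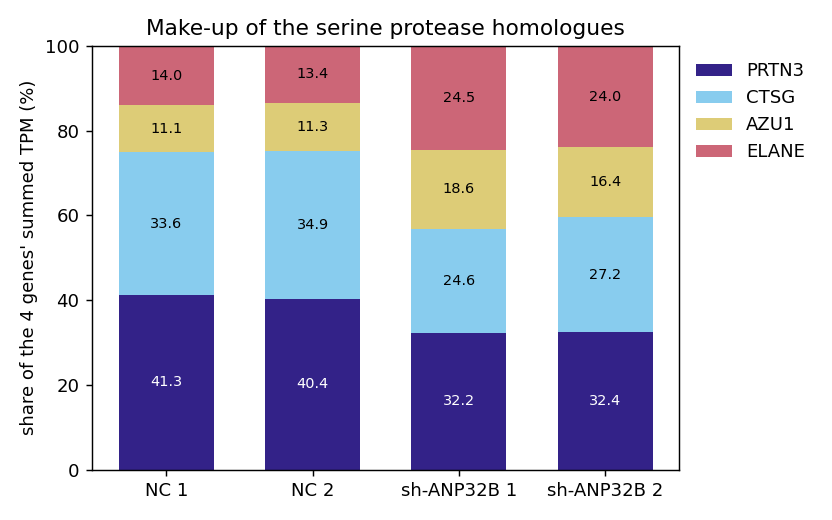
Share (%) of PRTN3, CTSG, AZU1 and ELANE in the summed TPM of these 4 genes, 1 bar per sample. ELANE takes 14.04% and 13.4% in NC and 24.5% and 24.0% in sh-ANP32B, and PRTN3 41.3% and 40.4% against 32.2% and 32.4%.

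To set the genes beside the sequence in front of them, the 250 bases before the RefSeq start site were read from the RefSeq promoter table (GRCh38.p14), which held 6 of the members and not ELANE, LYZ or SRGN. The windows of PRTN3, CTSG and AZU1 are printed because these genes lay on opposite sides of NC, in gene orientation, with matches to 4 motifs in capitals. The motifs, searched on both strands, are those of factors known from granule gene promoters: RUNX (TGNGGT, in 37.7% of 35116 windows of the same length), PU.1 (GAGGAA, 23.6%), C/EBP (TTNNGNAA, 33.2%) and MYB (CNGTT, 70.6%). No overlap with an annotated exon was found in GENCODE v44 for these windows. The AZU1 window, at chr19:827587-827836, ends at the RefSeq start site, whereas the GENCODE gene begins further upstream. That of PRTN3 is chr19:840749-840998 on the plus strand, and that of CTSG is chr14:24576251-24576500 on the minus strand.
PRTN3: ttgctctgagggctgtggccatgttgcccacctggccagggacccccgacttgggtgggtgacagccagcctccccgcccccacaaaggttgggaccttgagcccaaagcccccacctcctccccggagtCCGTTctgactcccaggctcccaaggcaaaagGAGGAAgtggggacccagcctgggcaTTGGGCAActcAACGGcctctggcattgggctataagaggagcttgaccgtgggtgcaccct
AZU1: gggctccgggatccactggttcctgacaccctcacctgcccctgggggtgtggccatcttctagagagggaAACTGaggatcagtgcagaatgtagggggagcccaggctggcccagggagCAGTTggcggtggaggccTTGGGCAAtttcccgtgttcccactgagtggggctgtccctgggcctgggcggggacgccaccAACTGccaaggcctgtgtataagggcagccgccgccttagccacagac
CTSG: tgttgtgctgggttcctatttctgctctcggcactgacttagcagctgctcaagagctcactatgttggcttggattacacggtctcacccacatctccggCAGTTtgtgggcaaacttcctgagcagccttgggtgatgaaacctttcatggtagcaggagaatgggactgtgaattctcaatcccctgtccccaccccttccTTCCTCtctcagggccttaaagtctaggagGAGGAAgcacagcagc
PRTN3 and AZU1 hold the same C/EBP word, TTGGGCAA, which begins 62 bases before the start site in PRTN3 and 111 bases before it in AZU1. The PU.1 word was found once in PRTN3 (88 bases before) and on both strands in CTSG (46 and 16 bases before), and had no match in this window of AZU1. MYB words were found in all 3 windows, a motif that most promoters hold. RUNX words were not found in these windows. PRTN3 and AZU1 matched at 55.4% of 233 aligned bases and PRTN3 and CTSG at 56.2% of 226. Matches are descriptions of the letters and not evidence of binding.

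Among the genes beside the members, CFD rose. It encodes complement factor D, a serine protease of the alternative complement pathway, and follows ELANE on chromosome 19 from 859453 to 867884. CFD had 30.7 and 28.5 TPM in NC, against 79.2 and 158 TPM in sh-ANP32B. The sh-ANP32B values were above NC in both samples but differed widely between them. The log2 fold change was 1.89 (limma SE 0.303, adjusted p 0.0399), and ranged from 1.39 to 2.38 when each sample was left out. PRSS57, another neutrophil serine protease gene of the same region that lies farther off, from 685546 to 695498 on the minus strand, had 5.49 and 5.80 TPM in NC, against 12.6 and 20.1 TPM in sh-ANP32B. It also rose, and the log2 fold change was 1.35 (limma SE 0.257, adjusted p 0.0468). This call was lost after median-of-ratios, upper-quartile and quantile scaling, with limma adjusted p of 0.0547, 0.0519 and 0.0600. Near-neighbours were counted over all members. Of 61 annotated genes within 100 kb of a member 18 were tested. By limma 1, CFD, passed as higher (2.14% of all genes did) and 0 as lower (1.18%). At an unadjusted p under 0.05, 2 were higher (15.0% of all genes) and 0 lower (8.72%). The median log2 fold change of these 18 genes was 0.11. None of the 5 genes within 100 kb of CTSG was tested.

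**Figure D4:**
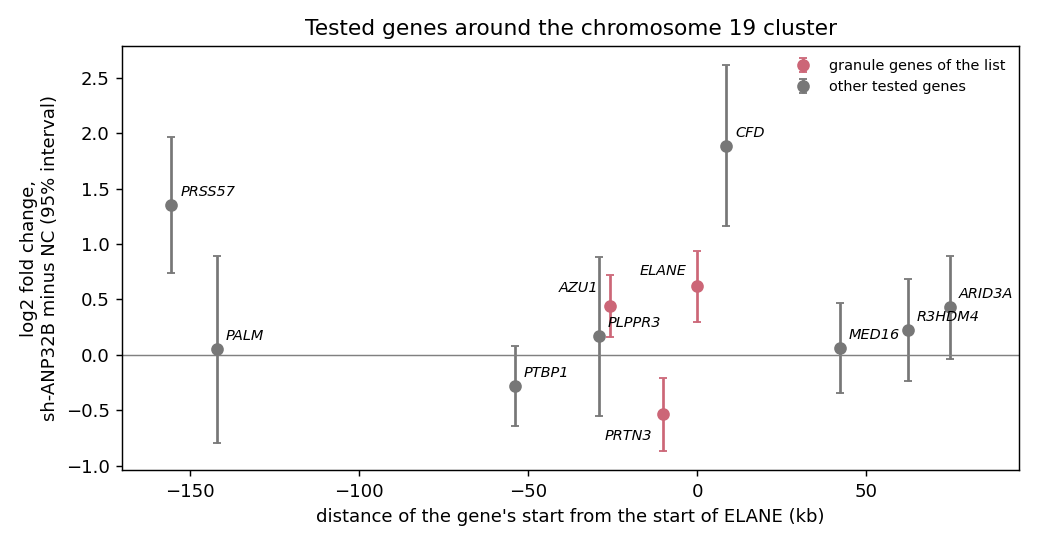
Log2 fold change, sh-ANP32B minus NC, with its 95% limma interval, against the distance (kb) of each gene's start from that of ELANE, for the tested genes within 100 kb of AZU1, PRTN3 or ELANE, and for PRSS57. PRTN3 at -0.54 stands between AZU1 at 0.44 and ELANE at 0.62, with CFD at 1.89 on the far side of ELANE.

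RNASE2 and RNASE3 encode the eosinophil-derived neurotoxin and the eosinophil cationic protein, close relatives that lie 63138 bases apart on chromosome 14. RNASE3 (ENSG00000169397), on the plus strand from 20891385 to 20892348, had 143 and 141 TPM in NC, against 116 and 102 TPM in sh-ANP32B. Both sh-ANP32B values were below NC, and the log2 fold change was -0.38 (limma SE 0.132, adjusted p 0.146, 95% interval -0.70 to -0.07). RNASE2 (ENSG00000169385), at 20955487 to 20956436 on the same strand, had 396 and 432 TPM in NC, against 430.3 and 328 TPM in sh-ANP32B. These ranges overlap, and the log2 fold change of -0.14 (limma SE 0.161, adjusted p 0.657) has a 95% interval of -0.52 to 0.25. It was 0.06 without sh-ANP32B replicate 2. RNASE2 over RNASE3 was 2.77 and 3.06 in NC and 3.72 and 3.23 in sh-ANP32B.

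Both levels are uncertain because the genes can share reads, and whether reads were counted by strand is not given in the sources used here. Their longest annotated transcripts matched at 88.8% of 717 aligned bases, with an unbroken identical run of 67 bases, and RNASE2 shares a run of 112 bases with the pseudogene RNASE2CP. RNASE2CP had 19.8 and 36.1 TPM in NC, against 31.1 and 25.7 TPM in sh-ANP32B. By comparison the longest identical run between ELANE and PRTN3 was 25 bases, and between PRTN3 and AZU1 15 bases. The windows of 250 bases before the start sites (chr14:20955237-20955486 for RNASE2 and chr14:20891135-20891384 for RNASE3) are printed to show how alike the pair is, with the same motifs in capitals.
RNASE2: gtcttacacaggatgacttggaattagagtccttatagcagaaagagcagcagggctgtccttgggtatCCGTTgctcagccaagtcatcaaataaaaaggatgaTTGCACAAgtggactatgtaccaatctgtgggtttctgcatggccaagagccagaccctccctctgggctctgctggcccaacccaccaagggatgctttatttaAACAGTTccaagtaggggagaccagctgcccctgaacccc
RNASE3: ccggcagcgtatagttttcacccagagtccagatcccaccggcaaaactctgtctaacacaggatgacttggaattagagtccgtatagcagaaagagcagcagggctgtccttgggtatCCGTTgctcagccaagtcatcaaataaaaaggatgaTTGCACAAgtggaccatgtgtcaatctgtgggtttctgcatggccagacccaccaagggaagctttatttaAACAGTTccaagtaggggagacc
They matched at 96.5% of 199 aligned bases, and each holds the C/EBP word TTGCACAA (a match on the reverse strand) and the same 3 MYB matches, of which 2 overlap on opposite strands. The groups did not overlap for RNASE3 and did for RNASE2, but the difference between the genes was not tested.

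Serglycin, the packing core, was close to the same level in every sample. SRGN (ENSG00000122862), on the plus strand of chromosome 10 between 69088103 and 69104805, had 1416 and 1485 TPM in NC, against 1509 and 1279.8 TPM in sh-ANP32B. The sh-ANP32B samples lay on either side of the NC samples. The log2 fold change was -0.06 (limma SE 0.136, adjusted p 0.833), with a 95% interval of -0.39 to 0.26, and its sign turned under several settings. LYZ over SRGN was 0.473 and 0.469 in NC and 0.901 and 1.03 in sh-ANP32B. SERPINB1 (ENSG00000021355), the protease inhibitor, lies on chromosome 6 from 2832332 to 2841959 on the minus strand. It had 118 and 127 TPM in NC, against 162 and 138 TPM in sh-ANP32B, higher in both, and the log2 fold change was 0.29 (limma SE 0.139, adjusted p 0.268, 95% interval -0.05 to 0.62). The summed TPM of its targets ELANE, PRTN3 and CTSG exceeded that of SERPINB1 16.9-fold and 15.3-fold in NC and 8.86-fold and 12.8-fold in sh-ANP32B.

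The members range widely in the GC content of their transcripts, with which the difference between the sh-ANP32B replicates also varied. Across 15427 genes the Spearman rho between GC content and the log2 difference of sh-ANP32B replicate 2 minus replicate 1 was 0.577, and between the NC replicates -0.206. These values are across genes, which are not independent. Among the 1543 genes lowest in GC content the median of this difference was -0.36, and among the 1543 highest it was 0.44. ELANE, PRTN3 and AZU1 had a GC content of 66.8%, 66.4% and 63.4%, and their log2 differences between the sh-ANP32B replicates were 0.22, 0.26 and 0.08. SRGN, LYZ and SERPINB1 had 38.0%, 41.3% and 43.4%, with differences of -0.24, -0.05 and -0.23. CTSG, at 54.7%, differed by 0.40.

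After each sample was corrected for GC content, 6 of the 9 members had a limma adjusted p under 0.05, against 1 without it. The log2 fold change became 1.05 for LYZ (limma adjusted p 0.00663), -0.72 for PRTN3 (0.0112), -0.65 for CTSG (0.0137), 0.35 for SERPINB1 (0.0279), -0.34 for RNASE3 (0.0381) and 0.43 for ELANE (0.0494). For AZU1 it was 0.29 (limma adjusted p 0.159), against 0.44 without the correction. The corrected fit held the 15427 genes with a GC content, of which 2752 were called. Without correction the same 15427 genes gave 613 calls, with LYZ again the only member, in a fit added after the data had been seen. The signs of all members but SRGN were kept.

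**Figure D5:**
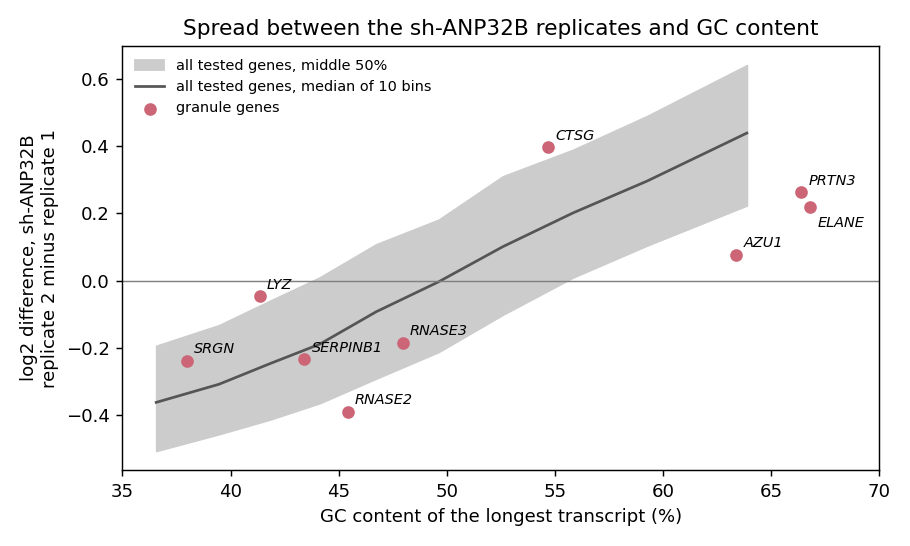
Log2 difference of sh-ANP32B replicate 2 minus replicate 1 against the GC content (%) of the longest transcript, for the 9 granule genes (points) and for all tested genes in 10 bins (line, median of each bin; band, middle 50%). The medians climb from -0.36 to 0.44, with SRGN at -0.24 near the low end and ELANE and PRTN3 at 0.22 and 0.26 near the high end.

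Genes of related function were read from the same fit in 9 lists, of whose 107 genes 62 were tested. Of these 4 passed, all of them higher, where 2.14% of all genes passed higher and 1.18% lower. Without the abundance trend in limma none of the 4 passed, with adjusted p of 0.116 for CFD and for PRSS57, 0.107 for SERPINA1 and 0.114 for RNASE6. Other azurophil and lysosomal contents counted 2 higher and 0 lower of 9 tested, CFD and PRSS57, with a median log2 fold change of 0.54. By limma 5 of the 9 were higher and 0 lower at an unadjusted p under 0.05, where 15.0% and 8.72% of all genes were. The same shares stand behind the unadjusted counts of the lists that follow. MAN2B1, the lysosomal alpha-mannosidase, had 226 and 206 TPM in NC, against 275 and 358 TPM in sh-ANP32B (limma adjusted p 0.112). GUSB, the lysosomal beta-glucuronidase, had 314 and 314 TPM in NC, against 300.4 and 328 TPM in sh-ANP32B.

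Inhibitors of granule proteases counted 1 higher and 0 lower of 5 tested, with a median log2 fold change of 0.07. SERPINA1, alpha-1-antitrypsin, the main plasma inhibitor of elastase, had 12.7 and 13.7 TPM in NC, against 41.0 and 53.1 TPM in sh-ANP32B. Both sh-ANP32B samples were far above NC, and the log2 fold change was 1.75 (limma SE 0.185, adjusted p 0.0258). SERPINB2, SERPINB6 and SERPINB8 had log2 fold changes of 0.28, 0.07 and 0.07, and did not pass. Among the RNase A family and its inhibitor 1 of 4 tested passed, with a median of 0.56. RNASE6, a ribonuclease of monocytes and macrophages, rose from 10.02 and 9.83 TPM to 34.4 and 26.8 TPM, a log2 fold change of 1.52 (limma SE 0.190, adjusted p 0.0299). RNH1, the inhibitor of these ribonucleases, had 98.1 and 96.8 TPM in NC, against 109.7 and 168.5 TPM in sh-ANP32B (limma adjusted p 0.226).

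In the other lists 0 genes passed by limma. Maturation and sorting of granule proteins, with 14 tested, had a median log2 fold change of -0.09 and 1 lower gene at an unadjusted p under 0.05, CALR, a chaperone of the endoplasmic reticulum, at -0.34 (limma adjusted p 0.154). CANX and PDIA3, which act beside it, had -0.18 and -0.24. Transcription factors known to act on granule gene promoters, with 11 tested, had a median of 0.15 and 3 higher genes at that unadjusted threshold. CEBPA had 335 and 319 TPM in NC, against 292 and 477 TPM in sh-ANP32B, SPI1 (PU.1) 251 and 241 TPM against 301 and 364 TPM, and IRF8 221 and 219.6 TPM against 212 and 239 TPM. Their limma adjusted p were 0.662, 0.131 and 0.920. SPI1 was among the 3 higher genes, while CEBPA and IRF8, named for their mean level, were not. For chain synthesis on serglycin, with 12 tested, the median was 0.21 and 2 genes were higher at the unadjusted threshold. CHSY1, CSGALNACT2 and CHST11 had log2 fold changes of -0.07, 0.54 and -0.03, and of them only CSGALNACT2 was among the 2 higher genes.

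Of 17 contents of later neutrophil granules 4 had values and 3 were tested. These were CHI3L1, at 224 and 224 TPM in NC, against 183 and 179 TPM in sh-ANP32B, PTX3 at 16.1 and 16.6 TPM against 20.5 and 24.7 TPM, and CAMP at 2.31 and 3.84 TPM against 5.45 and 7.18 TPM. All 3 had an unadjusted p under 0.05, 2 higher and 1 lower. Of eosinophil, basophil and mast cell granule genes 3 of 11 were tested, with 2 higher and 0 lower at the unadjusted threshold. TPSAB1, a mast cell tryptase, had 1439 and 1296 TPM in NC, against 2028 and 3215 TPM in sh-ANP32B, and the log2 fold change was 0.90 (limma SE 0.221, adjusted p 0.0749). It can share reads with TPSB2, a near-identical copy, whose log2 fold change was 0.76 (limma adjusted p 0.0741). MS4A2, a chain of the mast cell and basophil IgE receptor, lay on the other side, at 1.57 and 1.32 TPM in NC against 0.694 and 0.814 TPM in sh-ANP32B (limma adjusted p 0.420). Of 8 cytotoxic lymphocyte granule genes only NKG7 was tested. It did not pass, with 0.07 for its log2 fold change.

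Finally, the genes with the most similar levels were found by Euclidean distance between profiles of log2(TPM + 1) over the 4 samples. Nearest to ELANE were FDFT1 (distance 0.203), CD37 (0.204) and ENSG00000277571 (0.219). Nearest to SRGN, the member with the highest mean level, were RPL4 (0.131), RPS27A (0.166) and LDHA (0.311). With 4 samples such likeness describes levels only.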

How the data were processed

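RNA was sequenced from 2 NC and 2 sh-ANP32B samples of Kasumi-1, grouped by their titles. Per the submitters' processing notes, reads were aligned to hg38 with HISAT2 2.0.5. The deposited values are TPM made by the authors, as the decimals and column sums of 997812 to 998314 show. The program, annotation and any gene filter behind them are not given in the sources used here, and depth is unknown. Of 18567 gene IDs 16986 were named with GENCODE v44 (hg38), which also gave positions and GC content. Genes reaching 1 TPM in 2 or more samples were tested on log2(TPM + 1) by limma 3.58.1 with an abundance trend (R 4.3.3), two-sided. This scale understates changes of low genes. The test was tested on simulated data, with independent noise of the same size in both groups and no dependence on GC content. The simulation therefore does not cover the difference between the sh-ANP32B replicates that varied with GC content. DESeq2, the tool of the study, takes counts and so could not be applied. Members and lists were chosen with earlier results of these data known. Named genes were all members, the called genes of each list (at most 4, by size) with up to 3 others of highest mean TPM, called neighbours, and the 3 nearest profiles of ELANE and of the member with the highest mean. A gene that this rule also names is not reported here. Alternatives were other pseudocounts, filters, scalings, variance models and thresholds, GC correction by loess, a replicate block and leaving out each sample. Deviations of samples with equal numbers were not positively correlated (r = -0.0925 over genes). Tables and figures were made with Python 3.11.15, pandas 2.3.3, Biopython 1.88 and matplotlib 3.10.9.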

Additional observations from a re-analysis of the deposited data

How the results depend on the processing

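The number of members called by limma, 1 as reported, was 2 with a mean of at least 10 TPM, 6 after GC correction, 3 when a replicate block was fitted, 3 when block and correction were joined, 4 under the study's criterion and 0 without the abundance trend, where 5 members, 15 list genes, 2 neighbours and 3701 of all genes had an unadjusted p under 0.05. The count over all genes, 559 as reported, was 892, 2752, 1473, 2083, 3130 and 0 in the same order. For the companion lists, 4 as reported, it was 16 after GC correction, 9 when the block was fitted, 14 when both were, 15 under the study's criterion and 0 without the trend. For the neighbours, 1 as reported, it was 3, 2, 3, 2 and 0 in that order. Leaving out each sample, where a lone sample is assumed to vary like the other group, gave 0 to 7 members, 273 to 4079 genes, 4 to 23 list genes and 1 to 6 neighbours. LYZ kept its direction in every alternative, and its call in 13 of 14 apart from leaving out samples. The sign turned for SRGN, to 0.0314 after quantile normalization, 0.0032 after GC correction with or without the block and 0.0578 without sh-ANP32B replicate 2, and for RNASE2, to 0.057 without sh-ANP32B replicate 2. Leaving out each sample gave -0.18 to 0.0578 for SRGN and -0.332 to 0.057 for RNASE2. No member was called without NC replicate 1 or without NC replicate 2, 7 were called without sh-ANP32B replicate 1, and 6 without sh-ANP32B replicate 2. ELANE was called by limma in 3 of the 14, CTSG in 3, PRTN3 in 2, RNASE3 and SERPINB1 in 1 each, AZU1, RNASE2 and SRGN in 0, with the adjusted p of AZU1 between 0.0657 and 0.209. The replicate numbers are only numbers, and the block left few residual degrees of freedom. In the block fit without GC correction limma took the variance of each gene wholly from the trend over all genes. The cause of these shifts was not tested. The corrected fits held fewer genes, 15427, which without correction gave 613 calls over all genes, 1 member, 4 list genes and 1 neighbour. Depth is unknown, so no limit of detection was set.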
